A study of Mus musculus with 12 samples.

Results

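Glycolysis breaks glucose down to pyruvate through a fixed row of cytosolic enzymes. The genes described here are 10 that encode enzymes after hexokinase: Gpi1, Pfkl, Pfkp, Aldoa, Tpi1, Gapdh, Pgk1, Pgam1, Eno1 and Pkm. Other measured genes for the same steps are given further below. The 10 were picked by symbol, with earlier results of these data already known, and all 10 were found among the 12081 genes listed. The cells were primary hepatic stellate cells, the retinoid-storing pericytes of the liver, from mice with the Hk2 fl/fl genotype, whose Hk2 alleles can be cut by Cre recombinase. All 4 groups carried this genotype and held 3 libraries each. Quiescent cells (QS) were taken fresh from the liver without treatment, so they had neither culture nor virus. Activated cells (ACT) received an adenovirus for eGFP and spent 6 days in serum-containing medium. The Hk2-deleted group (KO) received an adenovirus for Cre joined to eGFP and the same 6 days. The lactate group (LAC) was Hk2-deleted in the same way and had 10 mM lactate for 24 h. The age of the mice is not given in the sources used here, the cells were enriched by density gradient rather than by a marker, and no label ties a library to its own animal or culture. The p-values below therefore set differences between groups only against the spread of libraries within groups, and that spread could be technical.

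The enzymes fall into a preparatory and a payoff phase. Glucose-6-phosphate isomerase, phosphofructokinase, aldolase and triosephosphate isomerase turn hexose phosphate into triose phosphate at the cost of ATP, with phosphofructokinase as the main control point. Glyceraldehyde-3-phosphate dehydrogenase, phosphoglycerate kinase, phosphoglycerate mutase, enolase and pyruvate kinase then make NADH, ATP and pyruvate, from which lactate is formed. Activated stellate cells are known for high use of glucose, and several of these genes are textbook targets of hypoxia-inducible factor, which binds the letters ACGTG or GCGTG in DNA.

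Promoters are shown for 5 of the genes: Pfkl and Pfkp, whose products do the same step and whose courses differed, and Pgk1, Tpi1 and Pgam1, which moved in opposite directions after Cre. Each is the RefSeq window from 250 bases before to 50 bases after an annotated start (build GRCm38.p6, 5′ to 3′ on the gene's strand). Capitals mark ACGTG or GCGTG, read on either strand. The windows lie at chr10:78009758-78010057 (minus strand) for Pfkl, chr13:6648722-6649021 (minus) for Pfkp, chr6:124814109-124814408 (minus) for Tpi1, chrX:106186850-106187149 (plus) for Pgk1 and chr19:41911621-41911920 (plus) for Pgam1.
Pfkl: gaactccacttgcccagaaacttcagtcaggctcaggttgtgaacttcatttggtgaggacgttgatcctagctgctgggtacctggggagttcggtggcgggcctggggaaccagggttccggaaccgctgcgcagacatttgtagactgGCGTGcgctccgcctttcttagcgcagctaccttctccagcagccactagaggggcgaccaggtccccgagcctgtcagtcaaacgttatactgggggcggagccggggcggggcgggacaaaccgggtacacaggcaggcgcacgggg
Pfkp: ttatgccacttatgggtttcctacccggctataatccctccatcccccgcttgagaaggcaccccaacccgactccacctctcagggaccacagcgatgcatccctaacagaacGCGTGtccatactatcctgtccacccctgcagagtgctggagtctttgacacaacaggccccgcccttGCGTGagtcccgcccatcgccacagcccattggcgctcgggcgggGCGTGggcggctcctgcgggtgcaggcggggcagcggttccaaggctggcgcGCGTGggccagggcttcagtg
Tpi1: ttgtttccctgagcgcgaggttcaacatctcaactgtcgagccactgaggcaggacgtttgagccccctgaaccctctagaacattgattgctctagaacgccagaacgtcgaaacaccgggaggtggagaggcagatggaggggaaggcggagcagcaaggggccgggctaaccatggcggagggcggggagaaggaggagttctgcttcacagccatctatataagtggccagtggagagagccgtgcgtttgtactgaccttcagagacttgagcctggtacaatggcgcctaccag
Pgk1: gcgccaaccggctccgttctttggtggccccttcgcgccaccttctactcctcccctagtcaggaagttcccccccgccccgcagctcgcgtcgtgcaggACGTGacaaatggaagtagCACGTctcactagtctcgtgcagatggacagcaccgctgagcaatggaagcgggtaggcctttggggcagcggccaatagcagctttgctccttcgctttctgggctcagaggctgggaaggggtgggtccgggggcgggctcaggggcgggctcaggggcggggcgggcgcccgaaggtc
Pgam1: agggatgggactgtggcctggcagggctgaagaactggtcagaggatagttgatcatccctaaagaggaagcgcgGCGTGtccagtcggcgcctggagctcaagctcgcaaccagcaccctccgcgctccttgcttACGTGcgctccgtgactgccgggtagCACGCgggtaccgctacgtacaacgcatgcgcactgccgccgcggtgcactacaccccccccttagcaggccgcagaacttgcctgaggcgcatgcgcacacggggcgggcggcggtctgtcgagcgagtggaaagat
Pfkp held 4 of these 5-letter cores, Pgam1 3, Pgk1 2, Pfkl 1 and Tpi1 none. Over the 10 genes, 15 promoters were listed, and 11 of the 15 held ACGTG or GCGTG, against 43.8% of all 32851 listed promoters. A pair of the Aldoa windows overlap, as do a pair of the Eno1 windows. Each pair holds the same cores, so some letters are counted more than once. The genes without a core in any listed promoter were Gpi1 and Tpi1. Taken singly, ACGTG was in 6 of the 15 promoters, from 5 genes (19.6% of all promoters). GCGTG was in 7 of the 15, also from 5 genes (32.4% of all promoters). The E-box CACGTG, which contains ACGTG, was in none of the 15 (7.15% of all promoters). The GC-box letters GGGCGG were found for 9 genes, Gapdh being the exception, and in 11 of 15 promoters (35.7% of all). A match describes letters only and is not evidence of a bound factor.

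Hk2 itself followed the labels. Its libraries read 180.5 to 182 CPM in ACT but 10.7 to 13.7 in KO and 18.7 to 19.7 in LAC, with 66.7 to 73.5 in QS. The labels do not say which exons Cre removes. Levels are normalised read counts in CPM, that is, counts scaled to library size with a further scaling by the authors, and reads estimated behind the listed genes ranged from 4.351 to 14.00 M (megareads) a library. Genes marking other liver cells moved with the groups, and this touches every result below. The summed level of 21 measured macrophage markers was 7768 to 7854 CPM in QS, 15547 to 15880 in ACT, only 549 to 566 in KO and 3763 to 3797 in LAC. The difference between QS and ACT was that of the lysozyme gene Lyz2, at 513 CPM in QS and 9350 in ACT: without it, a sum chosen after the values were seen, the other 20 summed to 7268 to 7314 CPM in QS, 6382 to 6418 in ACT, just 479 to 494 in KO and 1532 to 1547 in LAC. For 22 endothelial markers the sums were 20376 to 20950, 922 to 949, 10544 to 11821 and 5762 to 6004 CPM in the same order, and for 22 hepatocyte markers 2715 to 2773, 146 to 158, 598 to 655 and 260.03 to 269 CPM, with 2 markers listed at 0 in all ACT libraries and 8 in all LAC libraries. Most of the hepatocyte sum in ACT and LAC was Ass1, and the other 21 summed to 33.5 to 38.4 CPM in ACT and 1.34 to 2.49 in LAC. The 14 measured stellate markers summed to 6515 to 6685, 1664 to 1685, 2629 to 2875 and 2555 to 2636 CPM, and Gfap is not among the genes analysed here. The 10 myofibroblast markers summed to 544 to 584 CPM in QS and 15281 to 15348 in ACT, with 3742 to 3928 in KO and 7568 to 7946 in LAC. In such bulk RNA, fewer cells of a type and less RNA per cell cannot be told apart. The part of these other cells in the enzyme levels was not tested.

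Per length of the longest coding transcript, Gapdh had the highest level of the 10 in every group (491 CPM per kb in QS, then 1172, 1336 and 1320 in ACT, KO and LAC) and Pkm came second. Pfkp was lowest (6.43, 17.7, 16.4 and 21.8 CPM per kb), below Pfkl (27.1, 24.4, 24.9 and 30.9). Dividing by all merged exons of a gene instead put Pgk1 first and Gapdh in place 4 in QS, with Gapdh first in the other groups, while Gpi1, Pfkl and Pfkp kept the last places. The 10 genes together summed to 3791 ± 68.5 CPM in QS and 6718 ± 65.0 in ACT, then 7255 ± 195 in KO and 7929 ± 92.5 in LAC (mean ± SD, n = 3), with Pkm and Gapdh the largest terms in each group. As a share of each library's total, the sum was 0.3625%, 0.68%, 0.7503% and 0.8111%.

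**Figure D1:**
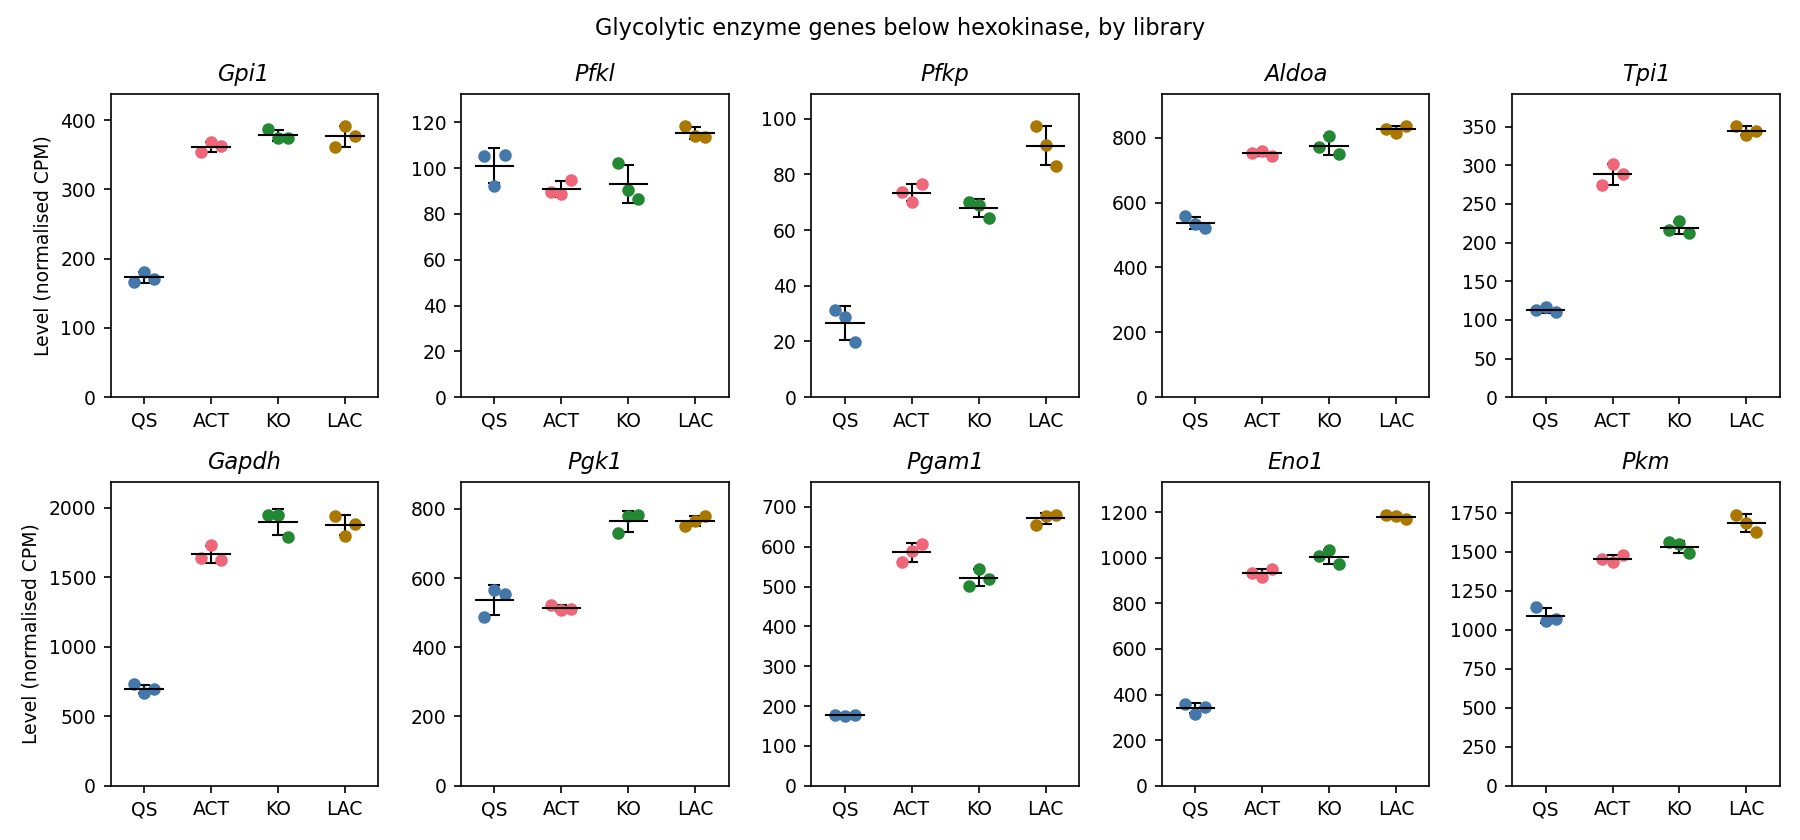
Level of each enzyme gene in every library. Points are libraries in replicate order within QS, ACT, KO and LAC, the vertical axis is normalised CPM from 0 with its own scale per gene, and the black bar and whiskers are mean ± SD of 3 libraries. Tpi1, Pgam1 and, more slightly, Pfkp dip in KO and are highest in LAC. Pgk1 instead steps up in KO and stays at 764 CPM in LAC, and Pfkl varies least between groups.

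Gpi1 (mm10, chromosome 7, 34201330 to 34230336, minus strand) encodes the isomerase that makes fructose 6-phosphate. It stood at 166, 181 and 170.4 CPM in the QS libraries 1 to 3, at 354, 369 and 362 in ACT, at 387, 374 and 373 in KO and at 361, 391 and 377 in LAC. The QS libraries were low and the cultured groups formed a single band. KO lay just above ACT without overlap, and LAC overlapped both.

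Phosphofructokinase, which commits sugar to glycolysis, was represented by its liver and platelet type genes. Pfkl (chromosome 10, 77986947 to 78010083, minus strand) read 105, 92.2 and 106 CPM in QS, 89.4, 88.6 and 95.0 in ACT, 102, 90.2 and 86.5 in KO and 118, 114 and 114 in LAC. Apart from LAC, which lay above every other library, its groups overlapped. Pfkp (chromosome 13, 6579768 to 6648777, minus strand) read 31.3, 28.8 and 19.9 CPM in QS, 73.6, 70.2 and 76.4 in ACT, 70.2, 69.1 and 64.3 in KO and 97.3, 90.6 and 83.1 in LAC. QS was far below the cultured groups and LAC highest, with KO only just under ACT. The QS value of 19.9 CPM rests on an estimated 95 reads, whose counting error alone is 10.3%, and the other 9 genes had at least 384 reads in every library.

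The ratio of Pfkp to Pfkl, which does not depend on library scaling, was 0.298, 0.312 and 0.188 in QS and 0.823, 0.793 and 0.805 in ACT. In KO it was 0.687, 0.766 and 0.743, and in LAC 0.823, 0.793 and 0.731. Fresh cells thus held mostly liver type mRNA. In cultured cells Pfkp came closer to Pfkl but stayed below it in every library, at 0.687 to 0.823, on a scale that is not per length. On the log2(CPM + 1) scale the ratio differed by 1.60 between ACT and QS and by 1.46 between KO and QS, with no overlap (exact two-sided permutation test, p = 0.1 each, the smallest that 3 against 3 libraries allow). It was 0.14 lower in KO than in ACT (difference -0.14, exact permutation p = 0.1). LAC differed by 0.09 from KO (exact permutation p = 0.3) and by -0.05 from ACT (exact permutation p = 0.5), less than the spread between libraries, and the last difference was 0.00 without LAC replicate 3. These are 5 tests of a design that cannot reach 0.05.

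Aldoa (chromosome 7, 126795234 to 126800751, minus strand) encodes the aldolase of muscle and most other tissues, which splits fructose bisphosphate. Its levels were 558, 533 and 522 CPM in QS, 752, 759 and 743 in ACT, 770.4, 807 and 749 in KO and 828, 816 and 836 in LAC. ACT and KO overlapped, QS lay below them and LAC above. A pair of annotated gene models shares the symbol, so the row may join them.

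Tpi1 (chromosome 6, 124810586 to 124814296, minus strand) encodes triosephosphate isomerase, which interconverts both triose phosphates. It was at 112, 117 and 109.8 CPM in QS, 275, 302 and 288 in ACT, 216, 228 and 212 in KO and 351, 339 and 344 in LAC. No groups overlapped, and the order from low to high was QS, KO, ACT, LAC.

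Gapdh (chromosome 6, 125161715 to 125166467, minus strand), often used as a reference gene in expression assays, encodes the dehydrogenase that opens the payoff phase. It read 729, 667 and 695 CPM in QS, 1637, 1733 and 1625 in ACT, 1948, 1951 and 1793 in KO and 1942, 1797 and 1884 in LAC. QS was low, ACT intermediate, and KO and LAC overlapped at the top. Across the 4 group means Gapdh thus varied between 697 and 1897 CPM in these libraries.

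Pgk1 (chromosome X, 106187100 to 106203699, plus strand) encodes phosphoglycerate kinase, the first ATP-yielding enzyme. Its libraries read 487, 565 and 555 CPM in QS, 522, 509 and 509.8 in ACT, 729, 779 and 784 in KO and 749.7, 764 and 779 in LAC. QS overlapped ACT, and KO overlapped LAC, so the gene had 2 levels, a lower one in the groups without Cre and a higher one in those with it.

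Pgam1 (chromosome 19, 41911923 to 41918660, plus strand) encodes phosphoglycerate mutase. It stood at 177, 176 and 179 CPM in QS, 561, 589 and 608 in ACT, 502, 545 and 519.5 in KO and 656, 677 and 681 in LAC. The groups were separate, in the same order as for Tpi1 and Pfkp.

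Eno1 (chromosome 4, 150236721 to 150248879, plus strand) encodes the widely expressed enolase. Its levels were 357, 315 and 347 CPM in QS, 931, 916 and 951 in ACT, 1006, 1035 and 974 in KO and 1189.7, 1181 and 1171 in LAC. Pkm (chromosome 9, 59656368 to 59679375, plus strand), the pyruvate kinase gene of muscle and dividing cells, read 1144, 1059 and 1068 CPM in QS, 1451, 1435 and 1478 in ACT, 1559.8, 1552 and 1489.7 in KO and 1739, 1685 and 1629 in LAC. Both genes rose from group to group in the order QS, ACT, KO, LAC without overlap. The splice forms of Pkm are not separated in the gene-level table. Gapdh, Pgk1, Pgam1 and Aldoa have processed pseudogenes, and reads shared with such copies make their exact levels uncertain.

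Culture with the control virus was compared with fresh cells to see what activation did to the pathway. All but a pair of the enzymes were higher in ACT: Gpi1, Pfkp, Aldoa, Tpi1, Gapdh, Pgam1, Eno1 and Pkm rose, and the rise ran from 1.334-fold for Pkm to 3.31-fold for Pgam1. In limma's test over all genes, 8 of 10 were called higher and 0 lower at an adjusted p under 0.05, against 38.0% of all genes called higher and 35.5% called lower. The libraries of the 8 lay above all QS libraries, as did those of 39.4% of all genes. The median log2 fold change of the 10 was 1.16, and that of all genes 0.03. Log2 fold changes use log2(CPM + 1), which understates the change of low genes, and folds are ratios of mean CPM.

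Pgam1 rose by 1.72 (SE 0.038, limma adjusted p = 2.68e-14), Eno1 by 1.46 (adjusted p = 4.93e-13), Pfkp by 1.45 (SE 0.124, adjusted p = 9.86e-08) and Tpi1 by 1.34 (adjusted p = 1.48e-12). Gapdh rose 2.389-fold (log2 1.26, adjusted p = 5.61e-12) and Gpi1 2.092-fold (log2 1.06, adjusted p = 1.07e-11). The smaller rises were those of Aldoa (0.48, adjusted p = 1.24e-08) and Pkm (0.42, adjusted p = 1.21e-07), the latter 0.18 under quantile normalisation. Pfkl did not pass (-0.15, 95% interval -0.30 to 0.01, adjusted p = 0.0599). Pgk1 did not pass either (-0.06, 95% interval -0.17 to 0.06, adjusted p = 0.303). So the enzymes directly before and after Pgk1 rose while its ACT libraries lay within the range of its QS libraries. The Pfkl call depended on the libraries: without QS replicate 2 it was called lower (-0.21, adjusted p = 0.0103), and without QS replicate 1 Pgk1 was called lower (-0.13, adjusted p = 0.00749). Between QS and ACT all 22 endothelial and 21 of 22 hepatocyte markers were called lower and all 10 myofibroblast markers higher, while macrophage markers went both ways (11 of 21 higher, 7 lower), and virus, culture and time came together.

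**Figure D2:**
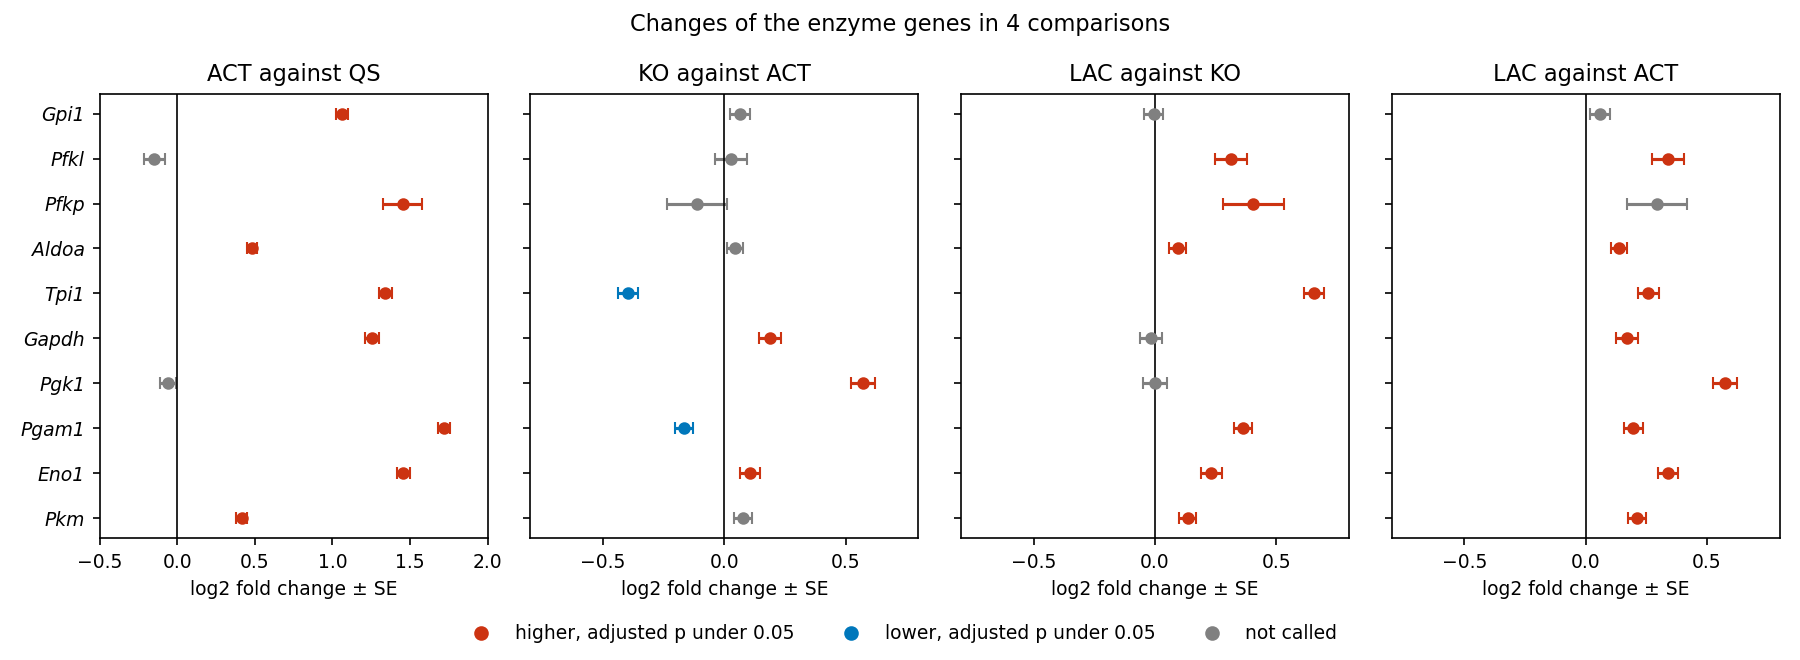
Log2 fold change of the enzyme genes in 4 comparisons. Points are limma estimates on the log2(CPM + 1) scale with ± SE bars, red for higher, blue for lower and grey for not called at an adjusted p of 0.05, and the first panel has a wider axis. Pgk1 is near 0 in ACT against QS and in LAC against KO, and at 0.57 in the comparisons of KO and LAC with ACT, whereas Tpi1 is at -0.40 in KO against ACT and at 0.66 in LAC against KO.

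The Hk2-deleted cells were set against ACT to ask what happened to the enzymes that follow the deleted step. The pathway did not move as a block: Pgk1, Gapdh and Eno1 were called higher in KO, Tpi1 and Pgam1 lower, and the other 5 genes were not called. These counts, 3 higher and 2 lower of 10, stand beside 36.0% and 26.3% of all genes, so the share called was near the background. Without overlap, 5 of the 10 lay above ACT (39.6% of all genes) and 3 below (29.6%). Their median log2 fold change was 0.05, and that of all genes 0.07.

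Pgk1 rose by 0.57 (SE 0.049, limma adjusted p = 1.81e-07), to 148.8% of its ACT level. Tpi1 fell by 0.40 on the log2 scale (SE 0.043, adjusted p = 1.84e-06), to 75.85% of ACT. These were the largest changes of the 10 in either direction, and both kept their call in every alternative run. Gapdh rose by 0.19 (SE 0.045, adjusted p = 0.0024), or by 0.43 under quantile and 0.11 under median-of-ratios scaling, and Pgam1 fell by 0.17 (SE 0.038, adjusted p = 0.00171). Eno1 rose by 0.11 (adjusted p = 0.0395), and this call was lost without ACT replicate 1 (adjusted p = 0.0856), ACT replicate 2 (0.118), KO replicate 1 (0.0749) or KO replicate 2 (0.135), without the intensity trend (0.116) and with median-of-ratios scaling (0.581). Not called were Gpi1 (0.06, adjusted p = 0.18), Pkm (0.08, adjusted p = 0.0855), Aldoa (0.04, adjusted p = 0.282), Pfkl (0.03, adjusted p = 0.737) and Pfkp (-0.11, adjusted p = 0.453). Pkm was called higher with equal totals (0.11, adjusted p = 0.0165), with quantile normalisation (0.32, adjusted p = 7.6e-06), with library weights (adjusted p = 0.0456) and without KO replicate 3 (adjusted p = 0.0467). For Pfkp every KO library lay below every ACT library, and the difference was smaller than its SE of 0.124, which is pooled over all groups.

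The macrophage marker sum of KO was 549 to 566 CPM, far below ACT, in the same direction as Tpi1 and Pgam1, and 19 of 21 of those markers were called lower and 1 higher. Myofibroblast markers went the same way, 9 of 10 called lower and 1 higher. The endothelial sum moved in the same direction as Pgk1 and Gapdh, with 21 of 22 markers called higher and 1 lower. Hepatocyte markers (21 of 22 higher, 0 lower) and stellate markers (11 of 14 higher, 2 lower) also rose. Whether any of these shifts took part in the changes of the enzymes was not tested, and Cre itself cannot be told apart from the loss of Hk2.

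Lactate was added to the Hk2-deleted cells, and LAC was compared with KO. Enzymes of both phases were higher: Pfkl, Pfkp, Aldoa, Tpi1, Pgam1, Eno1 and Pkm rose, and Gpi1, Gapdh and Pgk1 were not called. With 7 of 10 called higher and 0 lower, against 20% and 21.0% of all genes, the median log2 fold change was 0.18, and -0.02 over all genes. The 7 lay above KO without overlap, as did 24.8% of all genes.

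Tpi1 rose most, 1.577-fold (log2 0.66, SE 0.043, limma adjusted p = 2.79e-08). Pgam1 rose by 0.36 (adjusted p = 3.84e-06), Eno1 by 0.23 (adjusted p = 0.000545) and Pfkl by 0.31 (SE 0.067, adjusted p = 0.00195). Pfkp rose by 0.41 (SE 0.124, adjusted p = 0.0185), a call lost without KO replicate 3 (adjusted p = 0.0583) or LAC replicate 1 (0.0723). Pkm rose by 0.13 (adjusted p = 0.00917), but without the intensity trend its adjusted p was 0.0539 and under quantile normalisation its value was -0.09. Aldoa rose by 0.09 (adjusted p = 0.0443), or by 0.14 under median-of-ratios scaling, and without any 1 of KO replicates 1 and 3 or of the LAC libraries its adjusted p lay between 0.0668 and 0.146, with equal totals at 0.0859. The 95% intervals of the 3 genes not called were -0.10 to 0.09 for Gpi1 (adjusted p = 0.927), -0.12 to 0.09 for Gapdh (adjusted p = 0.796) and -0.11 to 0.12 for Pgk1 (adjusted p = 0.987). Under quantile normalisation Gapdh was called lower instead (-0.21, adjusted p = 0.000311). Macrophage markers moved with Tpi1 and Pgam1 here too, 16 of 21 called higher and 2 lower. So did myofibroblast markers, 10 of 10 called higher. Stellate markers went both ways (5 of 14 higher, 5 lower), while endothelial (1 higher, 20 lower of 22) and hepatocyte markers (1 higher, 20 lower of 22) fell. Their part was not tested.

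LAC was also compared with ACT, which places the lactate-treated cells beside activated cells that could still express Hk2. Every enzyme except Gpi1 had all LAC libraries above all ACT libraries, which held for 34.5% of all genes, and 8 of 10 were called higher and 0 lower, against 27.8% and 21.7% of all genes. The median log2 fold change was 0.23 against 0.03 for all genes. Pgk1 was again the largest (0.57, limma adjusted p = 2.96e-07), followed by Pfkl (0.34, adjusted p = 0.000705) and Eno1 (0.34, adjusted p = 1.14e-05). Tpi1 (0.26, adjusted p = 0.000171), Pkm (0.21, adjusted p = 0.000247), Pgam1 (0.20, adjusted p = 0.000628, and 0.11 under quantile normalisation), Gapdh (0.17, adjusted p = 0.00597) and Aldoa (0.14, adjusted p = 0.00424) followed. Pfkp (0.29, adjusted p = 0.0662) and Gpi1 (0.06, adjusted p = 0.248) did not pass. Pfkp was called when only the LAC and ACT libraries entered the fit (adjusted p = 0.00151), and Aldoa was lost under quantile normalisation (adjusted p = 0.109). The macrophage sum of LAC, 3763 to 3797 CPM, was far below the 15547 to 15880 CPM of ACT, also without Lyz2. Of the 21 macrophage markers, 20 were called lower and 1 higher. Of the 10 myofibroblast markers, 9 were called lower and 1 higher, and of 22 hepatocyte markers 13 lower and 1 higher. Endothelial markers (21 of 22 higher, 0 lower) and stellate markers (12 of 14 higher, 1 lower) rose, as did Tpi1 and Pgam1. The part of these shifts in the enzyme levels was not tested. Comparisons of KO with ACT, LAC with KO and LAC with ACT share libraries, so their values are given side by side and no overlap of their calls is read.

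Against fresh cells, the Hk2-deleted cells held 9 of 10 enzymes higher and 0 lower, against 37.4% and 35.7% of all genes. The same 9 did not overlap QS (36.8% of all genes lay above it without overlap). Eno1 (1.56, limma adjusted p = 3.29e-13) and Pgam1 (1.55, adjusted p = 1.22e-13) were highest, Gapdh was 2.722-fold higher (log2 1.44, adjusted p = 1.64e-12) and Pgk1 1.426-fold (log2 0.51, adjusted p = 3.87e-07). Tpi1, which was lower in KO than in ACT, was still 1.933-fold above QS (adjusted p = 9.69e-11). Pfkl did not pass (-0.12, 95% interval -0.27 to 0.03, adjusted p = 0.12), but was called lower without QS replicate 2 (adjusted p = 0.0222) or KO replicate 1 (0.0172). The median of the 10 was 1.04, against 0.02 over all genes.

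**Figure D3:**
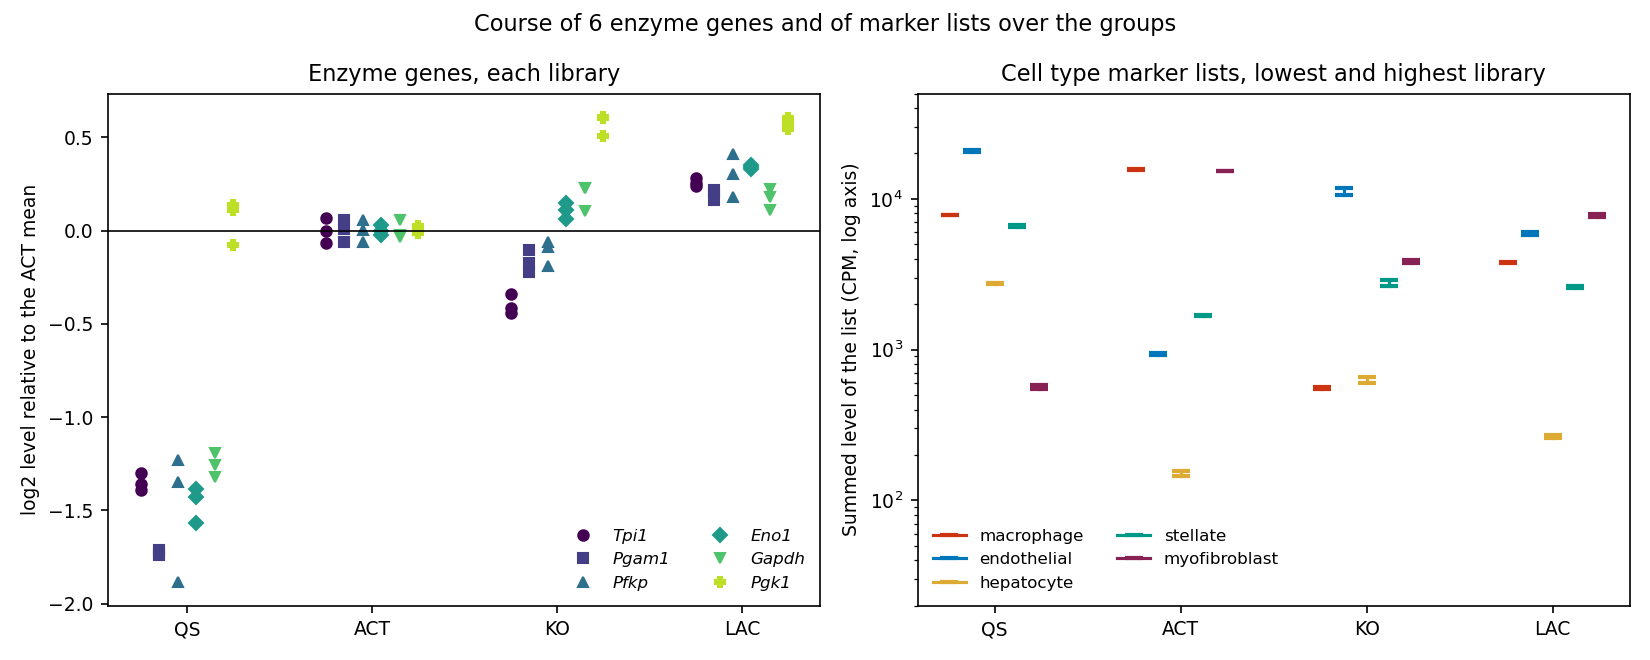
Courses of 6 enzyme genes beside marker lists. Left, each point is a library on the log2 scale relative to the ACT mean, right, the ends of each bar are the lowest and highest summed level of a marker list in a group, in CPM on a log axis. Tpi1, Pgam1 and Pfkp share the order QS, KO, ACT, LAC. The macrophage sum is lowest in KO and LAC, and its place in QS against ACT turns on Lyz2.

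The ratio of Pgk1 to Tpi1, chosen after these values were seen and therefore given without a test, put the opposite courses on a scale free of library size. It was 4.325 to 5.056 in QS, 1.685 to 1.897 in ACT, 3.377 to 3.693 in KO and 2.138 to 2.263 in LAC. The groups did not overlap, and KO lay nearer to QS than either LAC or ACT did.

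Most of the enzymes were correlated with each other over the 12 libraries. Of the variance of the 10 genes on the log2 scale, 94.4% lay on the first principal component, which largely reflects the gap between fresh and cultured cells. The median Pearson r of a gene with the other 9 was 0.928 to 0.981 for 8 genes, 0.552 for Pgk1 and 0.108 for Pfkl. Among 45 pairs the highest r was that of Aldoa with Eno1 (0.993) and the lowest that of Gpi1 with Pfkl (-0.059). These correlations are descriptions over 4 groups of 3 libraries, share every library and take in the same gap between fresh and cultured cells. Tpi1 and Gapdh had an r of 0.904, yet moved in opposite directions in KO against ACT (-0.40 and 0.19).

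Among 7380 genes with a mean of at least 20 CPM, the genes most like each enzyme in Pearson r over the 12 libraries were as follows. These r values also take in the gap between fresh and cultured cells. Tpi1 was most like the collagen gene Col11a1 and the hyaluronan synthase gene Has2 (both 0.996). Pgam1 was most like Vim, the gene of vimentin (0.998), and Rai14. Eno1 resembled Hdlbp (0.998) and Sidt2, and Gpi1 resembled Txndc5 (0.997) and Qsox1. Pfkp resembled the collagen-modifying gene P3h1 (0.983) and Pdia5, whereas Pfkl had a looser match in Zmynd8 (0.943) and Olfr1033. Gapdh went with Dbn1 (0.997) and Csf1, Aldoa with Unc5b (0.994) and E2f8, Pkm with Ppme1 (0.991) and Selenom, and Pgk1 with Ggta1 (0.986) and Itpripl2.

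Other genes that encode enzymes of the same steps, 4 of 10 listed, were measured and mostly low. Pfkm, the muscle phosphofructokinase gene, had means of 12.1, 22.1, 25.8 and 31.3 CPM in QS, ACT, KO and LAC and rose from QS to ACT. Pklr, the pyruvate kinase gene typical of hepatocytes, behaved otherwise: it was at 12.9 to 13.9 CPM in QS and listed at 0 in all ACT and LAC libraries, with 1 KO library above 0. It also counts among the hepatocyte markers, of which 21 of 22 were called lower in ACT than in QS. Eno3, the muscle enolase gene, ran from 11.9 to 16.4 CPM in ACT and from 2.97 to 8.24 in KO (log2 fold change -1.43, limma adjusted p = 0.0392). Eno1b, whose sequence resembles Eno1 so that reads can be shared, was at 7.15, 7.54 and 9.67 CPM in ACT but at 0 in every LAC library, with 1 library above 0 in each of QS and KO. By count, 3 of the 4 rose and 1 fell from QS to ACT, against 38.0% and 35.5% of all genes. From ACT to KO 2 fell, these being Eno3 and Eno1b, against 26.3% of all genes.

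Upstream of the 10 enzymes, genes of glucose uptake and phosphorylation were measured in 6 of 11 cases. From QS to ACT 5 rose and 0 fell, against 38.0% and 35.5% of all genes. Among the 5 were Hk2 (1.34, limma adjusted p = 1.23e-09), Slc2a8 (0.52) and the glucose transporter gene Slc2a1 (0.45, adjusted p = 0.0312). In KO against ACT 1 rose and 3 fell, against 36.0% and 26.3% of all genes. Hk1, the hexokinase of most tissues, rose by 0.61. Hk2 fell by 3.803 (adjusted p = 2.25e-14) and Hk3, which is also one of the macrophage markers, fell by 5.25. From KO to LAC 2 rose and 0 fell, Hk3 (3.43) and Hk2 (0.64, to 19.3 ± 0.575 CPM). In LAC against ACT 1 rose and 2 fell, against 27.8% and 21.7% of all genes.

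Downstream, all 7 listed genes of lactate formation and transport were measured. From QS to ACT 6 rose and 0 fell, in KO 2 rose and 5 fell, and from KO to LAC 5 rose and 1 fell. Ldha, the lactate dehydrogenase gene of glycolytic tissue, had the same order of groups as Tpi1, with means ± SD of 278 ± 10.1, 641 ± 9.27, 588 ± 7.09 and 754 ± 12.9 CPM in QS, ACT, KO and LAC. Slc16a3, a lactate exporter gene, went from 14.0 CPM in QS to 35.8 in ACT, 15.4 in KO and 46.3 in LAC. The monocarboxylate transporter gene Slc16a7 was at 19.6 CPM in ACT, 0.833 in KO and 5.44 in LAC, and Emb, a partner protein gene of such transporters, at 42.8, 7.63 and 17.2 CPM. Against ACT, LAC had 3 of these genes higher and 4 lower, beside 27.8% and 21.7% of all genes.

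Regulators of the pathway, 12 of 12 measured, went both ways. From QS to ACT 3 rose and 4 fell, against 38.0% and 35.5% of all genes. Hif1a, the hypoxia-inducible factor subunit whose protein is controlled mainly by degradation, had 583, 315, 222 and 306 CPM in QS, ACT, KO and LAC. Its mRNA was lower in ACT than in QS (-0.89, limma adjusted p = 3.3e-10) and went up from KO to LAC (0.46, adjusted p = 2.16e-06). The part of Hif1a in the enzyme levels was not tested. Myc, a transcription factor gene with glycolytic targets, had 117, 54.5, 96.0 and 73.8 CPM, and Pfkfb3, which makes an activator of phosphofructokinase, 131, 76.6, 115 and 116 CPM. In KO against ACT 4 regulators rose and 1 fell, against 36.0% and 26.3% of all genes. Pgm2 (1.08), Myc (0.81) and Pfkfb4 (0.68, adjusted p = 0.0173) had the largest rises. From KO to LAC 2 rose and 2 fell.

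Genes of the reverse route, gluconeogenesis, were measured in 7 of 9 cases. Pck1 and Fbp1, enzymes of hepatocytes, fell from QS to ACT (-5.87 and -4.41), and Pck1 rose in KO against ACT (3.62, limma adjusted p = 7.72e-11), in step with the hepatocyte markers, among which it is listed. The mitochondrial enzyme genes took other courses: Pck2 had 25.6, 46.6, 18.1 and 19.8 CPM in QS, ACT, KO and LAC, and Pcx, the pyruvate carboxylase gene, 10.5, 12.9, 32.8 and 30.4 CPM. By count, 3 rose and 2 fell from QS to ACT, 3 rose and 2 fell from ACT to KO, and 0 rose and 2 fell from KO to LAC.

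**Figure D4:**
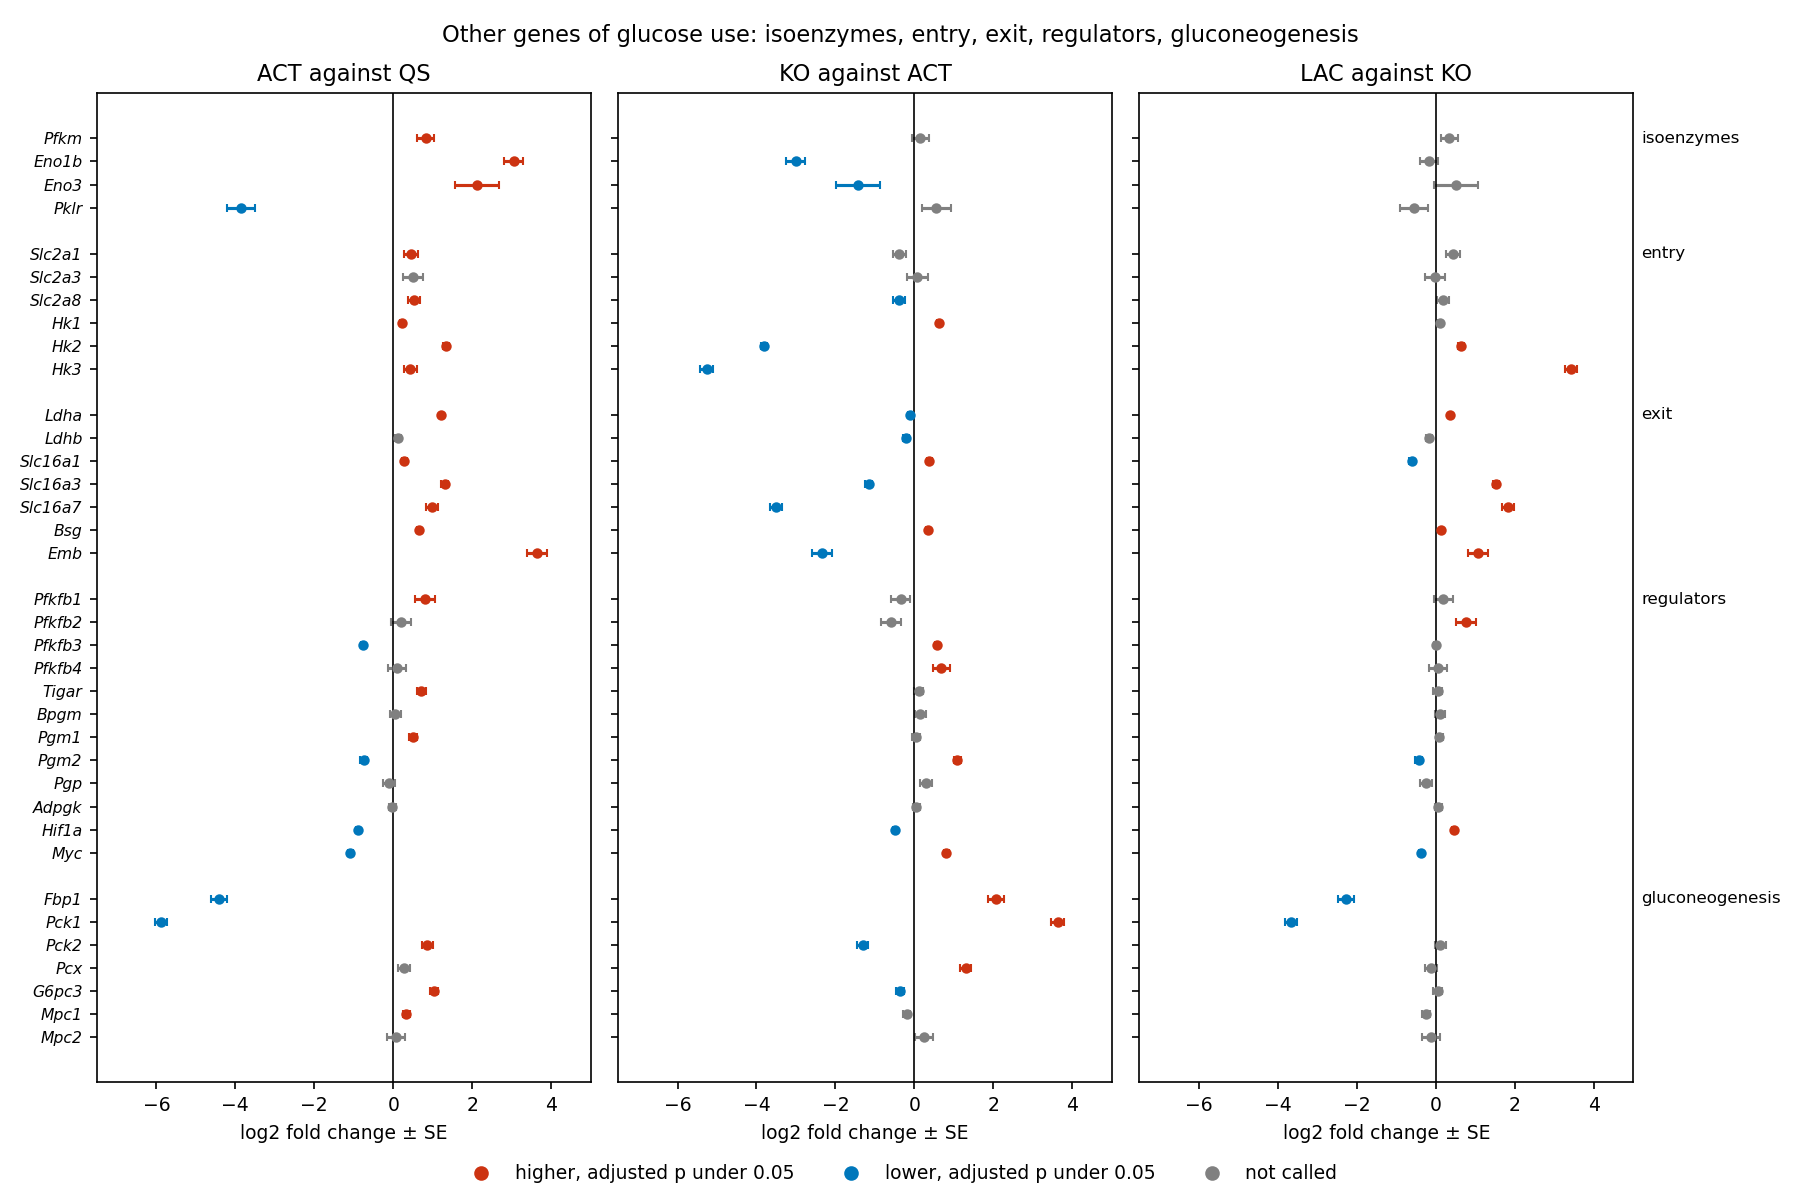
Log2 fold changes of other genes of glucose use in 3 comparisons, grouped by list at the right edge. Points are limma estimates on the log2(CPM + 1) scale with ± SE, coloured by call at an adjusted p of 0.05. Among the largest changes are those of Pck1, Fbp1 and Hk3, which mark hepatocytes or macrophages, and of Slc16a7 and Hk2, while most regulators stay within 1 log2 unit of 0.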

How the data were processed

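The deposited table gives, for 12081 genes and 12 libraries from a stranded mRNA kit (per the labels' protocols), a normalised signal in CPM with a further scaling by the authors, since column totals ran from 959233 to 1047042. The submitters' processing notes name kallisto 0.44.0, edgeR 3.8, cutadapt 1.18, FastQC 0.11.8 and build mm10, without their roles. Reads could not be recovered (19.73% to 25.74% of values were whole within 0.01), so no count test was run. Limma 3.58.1 in R 4.3.3 was fitted to log2(CPM + 1) with 4 group means over all 12 libraries (8 residual degrees of freedom, intensity trend). Benjamini-Hochberg adjustment ran over all genes, with calls made below an adjusted p of 0.05. A filter of 1 CPM in 3 libraries removed 0 genes. The code of the fit was run on simulated counts with known changes and a fixed spread, a simpler setting than these libraries.

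The genes and lists were chosen with earlier results of these data known. Named were all 10 enzymes, every measured isoenzyme, per list and comparison up to 3 called genes of at least 5 CPM in the higher group with the largest change, and the 2 genes most like each enzyme. Besides the isoenzymes counted in the text, a further one fixed for that list is not reported here. Coordinates and lengths came from GENCODE M21, promoters from RefSeq, in which all 10 symbols matched. Titles gave each sample's group and number. Intervals of fold changes are 95% intervals on 8 degrees of freedom. Limma's p-values use more, since its spread is pooled over genes, so these intervals are wider than its tests imply. Lists of other lymphocyte, neutrophil, cholangiocyte and mesothelial markers were also summed: mesothelial markers reached 227 to 244 CPM in ACT and at most 23.0 CPM elsewhere, cholangiocyte markers, apart from Spp1 (5084 CPM in ACT), 24.0 to 25.8 CPM in ACT and at most 87.5 CPM elsewhere, and 2 of 13 lymphocyte and neutrophil markers were measured, at 2.12 to 6.27 CPM.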

Additional observations from a re-analysis of the deposited data

How the results depend on the processing

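Alternatives were other pseudocounts, filters, scalings, moderation, library weights, a replicate block, fits of only the compared groups and leaving out each library. Of 1050 alternative values of the enzymes' fold changes, 986 kept direction and side of the threshold, 22 lost a call, 17 gained one and 25 changed sign, none of those 25 being called in the reported fit except Pkm in LAC vs KO. Replicate numbers gave no clear pairing of the libraries. The r of deviations was -0.116 to 0.234 over 18 same-numbered pairs (median 0.021) and -0.172 to 0.162 over 36 others (median -0.013). It was over 0.1 in 4 of the 18 and 4 of the 36, and the labels do not say what a number shares. With the replicate block, ACT vs QS had 8 higher and 1 lower (Pfkl, adjusted p = 0.0468), KO vs ACT 3 and 2, LAC vs KO 7 and 0, LAC vs ACT 9 and 0, and KO vs QS 9 and 0. The cause of these shifts was not tested.

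Library weights also gave 1 lower in ACT vs QS, quantile normalisation 1 lower in LAC vs KO, and both median scalings 1 lower in KO vs QS (Pfkl, -0.18). Leaving out a library gave 8 higher and 0 to 1 lower in ACT vs QS, 2 to 4 higher and 2 lower in KO vs ACT, 5 to 7 higher in LAC vs KO, 8 higher in LAC vs ACT, and 9 higher and 0 to 1 lower in KO vs QS. The Pfkp to Pfkl log2 ratio then ran from 1.375 to 1.73 (ACT vs QS), -0.173 to -0.0957 (KO vs ACT), 0.0493 to 0.141 (LAC vs KO), -0.083 to 0.00086 (LAC vs ACT) and 1.235 to 1.59 (KO vs QS).

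Signs changed as follows. With equal totals, Pgk1 was 0.02381 in ACT vs QS and -0.01444 in LAC vs KO. With quantiles, Pfkl was -0.0144 and Aldoa -0.04255 in KO vs ACT, and Pkm -0.09191 in LAC vs KO. With medians of ratios, KO vs ACT gave -0.01461 for Gpi1, -0.05107 for Pfkl, -0.03535 for Aldoa and -0.003833 for Pkm, and LAC vs KO gave 0.0413 for Gpi1 and 0.02994 for Gapdh. Without marker genes in that scaling, the values were -0.01403, -0.05049, -0.03477 and -0.003249, then 0.04139 and 0.03003. Leaving out a library gave Pfkl -0.04142 to 0.07733 in KO vs ACT, and in LAC vs KO Gpi1 -0.03327 to 0.02383, Gapdh -0.0573 to 0.01302 and Pgk1 -0.03193 to 0.02. The median of all genes moved by over 0.1 only in KO vs QS with equal totals, from 0.016 to 0.119.

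Depth limits Pfkp most, and changes of total RNA per cell are not visible in scaled values.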
